A study of Mus musculus with 4 samples.

Results

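The Toll-like receptors Tlr1, Tlr2, Tlr3, Tlr4, Tlr5, Tlr6, Tlr7 and Tlr9 are described here with Cd14, which encodes the co-receptor of TLR2 and TLR4, and Myd88, which encodes their shared adaptor. The genes were taken by their symbols, and all 10 were found among the 23284 gene symbols of each of 4 mouse RNA sequencing libraries. The libraries came from living stromal cells of the large intestine, sorted for the fibroblast and lymphatic surface protein podoplanin and without cells that carry CD45, CD31 or EpCAM. The groups, with 1 library each, were C57BL/6J mice labelled IL-10 KO, set against C57BL/6J wild type, and BALB/c mice labelled Rag2 KO, set against BALB/c wild type. IL-10 is a cytokine that restrains inflammation, and Rag2 is needed for T and B cells to mature. No source used here gives the age, the sex or the number of animals per library. The design of the knockout alleles is not described there.

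Toll-like receptors recognise conserved molecules of microbes. TLR2 pairs with TLR1 or TLR6 to detect bacterial lipoproteins, TLR4 detects lipopolysaccharide handed over by CD14, and TLR5 detects flagellin, all at the cell surface. TLR3, TLR7 and TLR9 detect double-stranded RNA, single-stranded RNA and unmethylated CpG DNA in endosomes. All of them except TLR3 signal through MyD88 to NF-kappaB, whereas TLR3 uses the adaptor TRIF, which TLR4 can use as well. In the intestine these receptors are found on macrophages, epithelium and stromal cells, which live close to a dense bacterial community.

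Levels are FPKM, the fragments of a gene scaled by the length of its transcript and by the size of the library. How library size was scaled is not given in the sources used here. Scaling by length lets genes be set side by side, within limits. Gapdh had 0.349 FPKM or less in all libraries, so a level can fall short of the expression of a gene. Numbers of fragments were estimated from the spacing of low FPKM, and the 95% intervals of levels (Poisson) and ratios (binomial) are exact intervals of those estimated counts. They cover counting error only. Each group is 1 library, so no replicate error, test or p-value can be had, and "higher" and "lower" describe these libraries. A gene was counted as higher or lower at 2-fold or more, that is, at a difference of at least 1 in log2 of FPKM plus 1, if its FPKM reached 1 in either library. The added 1 shrinks the ratios of weakly expressed genes, so the ratio of the FPKM themselves is given beside it. Where a pair of log2 ratios is given for a gene, the first is that of the IL-10 comparison and the other that of the Rag2 comparison.

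The estimated depth was about 8408000 fragments for the IL-10 knockout and 8753000 for C57BL/6J wild type. It was 9707000 for the Rag2 knockout and 9984000 for BALB/c wild type. These depths follow the scaling of the deposited FPKM and may differ from the fragments mapped. The sort marker Pdpn had 158 to 292.5 FPKM. Stromal markers were present in every library: the summed FPKM of 8 of them was 11209 in the IL-10 knockout, 11289 in C57BL/6J wild type, 10358 in the Rag2 knockout and 10556 in BALB/c wild type. Markers of cells that the sort leaves out were present too and differed between libraries, as given beside the results. Il10 had 129.9 FPKM in the library labelled IL-10 KO and 3.33 in its wild type. Whole-gene FPKM do not show whether the deleted part was transcribed. Rag2 was listed at 0.712 FPKM in the library labelled Rag2 KO and at 0 in its wild type. The B cell markers, whose summed FPKM was 1.17 in the Rag2 knockout and 34.1 in BALB/c wild type, were low where Rag2 is labelled as absent.

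Cd14 and Tlr2 were higher in both knockout libraries, Tlr1 and Tlr9 reached 2-fold in the IL-10 knockout, and Tlr4 and Myd88 stayed close to their wild types. In the IL-10 knockout 4 of the 10 reached 2-fold upwards and 0 downwards, where 10.1% of 12790 compared genes were higher and 3.82% lower. In the Rag2 knockout 2 of 10 were higher and 0 lower, where 4.42% of 12336 compared genes were higher and 2.03% lower. All 10 genes reached 1 FPKM in the IL-10 knockout or its wild type, and 8 did so in the Rag2 comparison, where Tlr5 and Tlr7 did not. In the IL-10 comparison Tlr1, Tlr5, Tlr7 and Tlr9 passed through the knockout alone, as did Tlr1 and Tlr9 in the Rag2 comparison. The median log2 ratio over all 10 genes was 0.79 in the IL-10 comparison, beside -0.0018 over all compared genes, and 0.42 in the Rag2 comparison, beside -0.0041. All 10 genes had their lowest value in C57BL/6J wild type, while 8 had their highest in the IL-10 knockout and 2, Tlr3 and Myd88, in the Rag2 knockout. The same was not counted over all genes, and parts of this order lie within counting error. Between the wild types the interval of the ratio held 1 for Tlr1, Tlr2, Tlr5, Tlr6, Tlr7 and Tlr9. Tlr4 had 12.2 FPKM in the IL-10 knockout and 12.0 in BALB/c wild type.

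**Figure D1:**
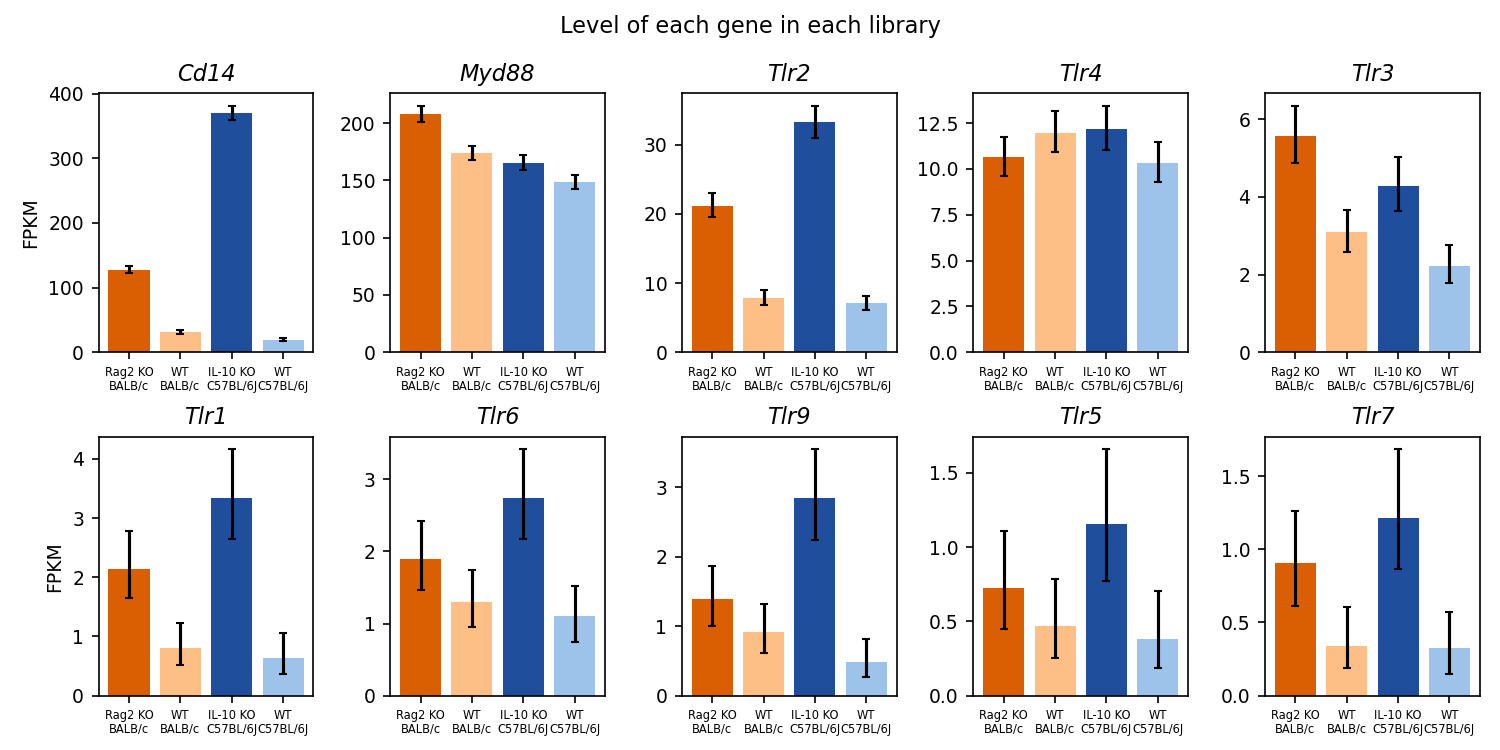
FPKM of each of the 10 genes (bars, each panel on its own axis from 0) in the Rag2 knockout, BALB/c wild type, IL-10 knockout and C57BL/6J wild type libraries, with 95% intervals of counting error as whiskers. Cd14 reached 370.3 FPKM in the IL-10 knockout against 19.2 in its wild type, whereas Tlr4 lay between 10.3 and 12.2 FPKM in all 4 libraries.

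Upstream sequences are shown for 4 genes that differ in their response and hold a match to a motif of inflammatory transcription factors: Tlr2 (higher in both knockouts), Tlr6 and Tlr3 (smaller differences) and Myd88 (nearly level). Each runs over the 250 bases before a transcription start, 5′ to 3′ on the gene's strand, from RefSeq (GRCm38.p6), which held windows for 7 of the 10 genes. The Tlr6 and Tlr3 windows lie inside the gene spans given below, and the Tlr2 window lies partly inside its span. Their starts are therefore not the outermost ends of those genes. Capitals mark matches, on either strand, to GAAA followed after any 2 bases by GAAA (ISRE, bound by interferon-activated factors), TTCNNNGAA (GAS, bound by STAT factors) or the NF-kappaB consensus.
Tlr2, chr3:83841609-83841858, minus strand: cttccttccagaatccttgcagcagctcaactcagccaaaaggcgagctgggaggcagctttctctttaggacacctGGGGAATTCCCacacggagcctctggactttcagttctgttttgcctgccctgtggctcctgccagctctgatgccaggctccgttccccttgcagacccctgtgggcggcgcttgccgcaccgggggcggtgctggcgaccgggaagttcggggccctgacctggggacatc
Tlr6, chr5:64959167-64959416, minus strand: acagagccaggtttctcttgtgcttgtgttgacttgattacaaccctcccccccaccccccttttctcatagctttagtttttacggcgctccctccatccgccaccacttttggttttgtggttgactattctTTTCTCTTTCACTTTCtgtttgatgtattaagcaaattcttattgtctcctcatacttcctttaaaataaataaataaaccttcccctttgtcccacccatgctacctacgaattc
Tlr3, chr8:45410381-45410630, minus strand: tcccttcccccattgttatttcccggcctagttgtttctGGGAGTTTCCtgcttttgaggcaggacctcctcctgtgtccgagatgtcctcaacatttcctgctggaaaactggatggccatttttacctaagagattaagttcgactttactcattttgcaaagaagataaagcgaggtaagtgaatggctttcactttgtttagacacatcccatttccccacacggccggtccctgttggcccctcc
Myd88, chr9:119340019-119340268, minus strand: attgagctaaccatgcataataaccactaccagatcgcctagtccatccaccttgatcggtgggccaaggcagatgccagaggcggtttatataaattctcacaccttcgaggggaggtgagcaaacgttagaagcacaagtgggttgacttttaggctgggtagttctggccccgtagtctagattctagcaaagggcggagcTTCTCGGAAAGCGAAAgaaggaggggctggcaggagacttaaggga
In the Tlr2 window 2 overlapping NF-kappaB matches began 173 and 172 bases before the start, and in the Tlr3 window 1 began 211 bases before it. The Tlr6 window, 1 of 2 for that gene, held 2 overlapping ISRE matches beginning 116 and 110 bases before the start, and the other window held none. In the Myd88 window an ISRE match beginning at 40 bases overlapped a GAS match beginning at 46 bases. Windows with an ISRE match made up 2.98% of all 32851 such windows, those with GAS 7.02%, and those with the NF-kappaB consensus 3.90%. TGANTCA (AP-1), in 6.75% of all windows, was found in the window of Tlr9 and in none of the other 6 genes. A GAS match was found in 1 of 2 windows of Tlr1, and the Tlr5 window held none of the 4 motifs. These matches are letters in a window and say nothing of binding.

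Cd14 (chromosome 18, 36725064 to 36726815 in GRCm38) had the widest range of the 10 genes. It had 370.3 FPKM in the IL-10 knockout and 19.2 FPKM in C57BL/6J wild type, and in BALB/c mice 128 FPKM in the Rag2 knockout and 31.7 FPKM in wild type. Both knockouts thus lay above both wild types, with the IL-10 knockout highest. The ratio was 19.3-fold for the IL-10 knockout (95% counting interval 17.0 to 22.1) and 4.03-fold for the Rag2 knockout (3.63 to 4.48). On the log2 scale of FPKM plus 1 the differences were 4.20 and 1.98, and that of the IL-10 comparison was larger by 2.23, a gap that was not tested. In bulk samples, more cells that express a gene and more RNA per cell cannot be told apart.

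Tlr2 (chromosome 3, 83836272 to 83841824) had 33.2 FPKM in the IL-10 knockout and 7.04 FPKM in C57BL/6J wild type, and in BALB/c mice 21.2 FPKM in the Rag2 knockout and 7.84 FPKM in wild type. The wild types were close together and both knockouts were above them. The ratio was 4.72-fold for the IL-10 knockout (3.999 to 5.60; log2 ratio with 1 added 2.09) and 2.703-fold for the Rag2 knockout (2.31 to 3.17; 1.33).

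Summed markers of leukocytes in general, macrophages and neutrophils were also higher in both knockouts. The summed FPKM of 6 general leukocyte markers was 615 in the IL-10 knockout and 48.9 in C57BL/6J wild type. In BALB/c mice it was 209 in the Rag2 knockout and 109 in wild type, of which Tyrobp alone had 92.2 and 33.9. At least 2-fold higher were 6 of 6 in the IL-10 knockout and 2 of 6 (Tyrobp and Fcer1g) in the Rag2 knockout, beside 10.1% and 4.42% of all compared genes. Between the wild types 3 of 6 were at least 2-fold higher in BALB/c, beside 1.81% of all compared genes. In that comparison Cd14 differed 1.66-fold (1.41 to 1.94) and Tlr2 1.11-fold (0.908 to 1.37). For 10 macrophage and monocyte markers the sums were 807 in the IL-10 knockout and 135 in C57BL/6J wild type. In BALB/c mice they were 472 in the Rag2 knockout and 253 in wild type, of which Lyz2 alone had 296 and 135. By the 2-fold count 9 of 10 were higher in the IL-10 knockout and 3 of 10 in the Rag2 knockout. Cd68 was not higher in the Rag2 knockout, with 22.0 FPKM against 23.3 in BALB/c wild type. Csf1r, a receptor gene of that list, had 41.0 FPKM in the IL-10 knockout and 6.77 in C57BL/6J wild type. In BALB/c mice Csf1r had 18.8 in the Rag2 knockout and 12.9 in wild type. Over 8 neutrophil markers the sums were 417 in the IL-10 knockout and 5.82 in C57BL/6J wild type. In BALB/c mice they were 47.2 in the Rag2 knockout and 13.7 in wild type, of which Retnlg alone had 36.9 and 12.5. In the IL-10 knockout 8 of 8 compared were higher, and in the Rag2 knockout 3 of 3 compared. Only Retnlg reached 1 FPKM in the wild types (5.43 in C57BL/6J). The others passed the filter through the knockouts alone, so these counts are largely set by the filter. Ngp, Camp, Ltf, Mmp8 and Mpo were under 1 FPKM in both BALB/c libraries, with Ngp at 0.216 in the Rag2 knockout and 0.210 in wild type. Cxcr2 was listed at 0 in both wild types and Ngp at 0 in C57BL/6J wild type. Macrophages and neutrophils express Cd14 and Tlr2 strongly, and their part in the ratios above was not tested.

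The partners of TLR2 were expressed at lower levels. Tlr1 (chromosome 5, 64924680 to 64933600) had 3.33 FPKM in the IL-10 knockout and 0.630 in C57BL/6J wild type, and in BALB/c mice 2.14 in the Rag2 knockout and 0.807 in wild type. Its ratio was 5.29-fold in the IL-10 comparison, where the wild type value rests on about 16 fragments (3.06 to 9.69), and 2.65-fold in the Rag2 comparison (1.61 to 4.50). With 1 added, the log2 ratios were 1.41 and 0.80, so the Rag2 value misses the 2-fold line only on that scale. Tlr6, its neighbour on the chromosome (64953092 to 64970942), had 2.74 FPKM in the IL-10 knockout and 1.10 in C57BL/6J wild type, and in BALB/c mice 1.90 in the Rag2 knockout and 1.30 in wild type. It differed 2.49-fold (1.64 to 3.86) and 1.46-fold (0.982 to 2.19), and the second interval holds 1. Tlr1 and Tlr6 are paralogs, and how fragments that fit both were assigned is not given in the sources used here. Tlr1 was 1.22 times Tlr6 in the IL-10 knockout and 0.573 times in its wild type. In the BALB/c pair it was 1.13 times Tlr6 in the Rag2 knockout and 0.621 times in wild type, and all 4 counting intervals held 1. The level of these partners was between 0.630 and 3.33 FPKM, and Tlr2 exceeded each of them at least 6.03-fold in every library.

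Tlr4 (chromosome 4, 66827551 to 66846581), the receptor that CD14 serves, had 12.2 FPKM in the IL-10 knockout and 10.3 in C57BL/6J wild type, and in BALB/c mice 10.6 in the Rag2 knockout and 12.0 in wild type. The knockouts did not stand apart from the wild types. The ratio was 1.18-fold for the IL-10 knockout (1.02 to 1.37) and 0.887-fold for the Rag2 knockout (0.774 to 1.02). Cd14 was 30.4 times Tlr4 in the IL-10 knockout and 1.86 times in its wild type, and 12.03 times in the Rag2 knockout and 2.65 times in its wild type.

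Tlr5 (chromosome 1, 182954752 to 182976044) was among the weakest, with 1.15 FPKM in the IL-10 knockout and 0.382 in C57BL/6J wild type, and in BALB/c mice 0.724 in the Rag2 knockout and 0.469 in wild type. These values rest on about 10 to 29 fragments. The ratio was 3.02-fold in the IL-10 comparison (1.43 to 6.94), while in the Rag2 comparison the interval ran from 0.748 to 3.28 around 1.54 and so held 1.

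Among the endosomal receptors, Tlr3 (chromosome 8, 45395665 to 45411075) was the most abundant in every library. It had 4.28 FPKM in the IL-10 knockout and 2.22 in C57BL/6J wild type, and in BALB/c mice 5.58 in the Rag2 knockout and 3.09 in wild type. Both knockouts exceeded both wild types, and here the Rag2 knockout was the highest. The ratios of 1.93-fold (1.46 to 2.55) and 1.81-fold (1.45 to 2.26) were close to each other and short of 2-fold, and with 1 added the log2 ratios of 0.71 and 0.69 differed by 0.026.

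Tlr9 (chromosome 9, 106222598 to 106226876) had 2.85 FPKM in the IL-10 knockout and 0.491 in C57BL/6J wild type, and in BALB/c mice 1.39 in the Rag2 knockout and 0.922 in wild type. The IL-10 knockout stood above the other libraries, with a ratio of 5.80-fold to its wild type (3.26 to 11.1). That wild type value rests on about 14 fragments, and the log2 ratio with 1 added was 1.37. In the Rag2 comparison the ratio was 1.51-fold, its counting interval (0.927 to 2.49) held 1, and the log2 ratio with 1 added was smaller by 1.05 than in the IL-10 comparison. B cells express Tlr9. The 6 B cell markers had a summed FPKM of 87.5 in the IL-10 knockout and 11.1 in C57BL/6J wild type, and in BALB/c mice of 1.17 in the Rag2 knockout and 34.1 in wild type, with Pax5 and Pou2af1 listed at 0 in the Rag2 knockout. By the 2-fold count, all 6 B cell markers were higher in the IL-10 knockout, beside 10.1% of all compared genes. All 6 were lower in the Rag2 knockout, beside 2.03% of all compared genes, and passed the filter there through BALB/c wild type alone. The part of B cells in the Tlr9 values was not tested.

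Tlr7 lies on the X chromosome (167303380 to 167330574) and had 1.21 FPKM in the IL-10 knockout and 0.323 in C57BL/6J wild type, and in BALB/c mice 0.903 in the Rag2 knockout and 0.340 in wild type. It was higher in both knockouts, 3.75-fold (1.83 to 8.44) and 2.66-fold (1.36 to 5.52), but at about 10 to 38 fragments, and neither difference reached 2-fold once 1 was added to the FPKM (0.74 and 0.51). Xist, a non-coding RNA that coats the silenced X, had 44.9 FPKM in the IL-10 knockout and 23.0 in C57BL/6J wild type, and in BALB/c mice 0.105 in the Rag2 knockout and 0.0509 in wild type. The Y-linked Ddx3y had 0.0269 FPKM in the IL-10 knockout and 16.9 in C57BL/6J wild type, and in BALB/c mice 31.5 in the Rag2 knockout and 36.3 in wild type. Both transcripts were thus present in C57BL/6J wild type, the IL-10 knockout had Xist with Ddx3y near 0, and the BALB/c pair had Ddx3y with Xist near 0. In the IL-10 comparison the genotype cannot be told apart from this difference in sex-linked transcripts. That holds for Tlr7 and for every other gene, Cd14 and Tlr2 included. The part of sex in the ratios was not tested.

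Myd88 (chromosome 9, 119335934 to 119340018) had 166 FPKM in the IL-10 knockout and 149 in C57BL/6J wild type, and in BALB/c mice 208 in the Rag2 knockout and 174 in wild type. It was abundant everywhere and differed little, 1.11-fold (1.05 to 1.18) and 1.198-fold (1.14 to 1.26), and the strains differed about as much as the genotypes. These intervals are narrow because they rest on 2279 to 3538 estimated fragments, and they leave out the variation between animals.

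**Figure D2:**
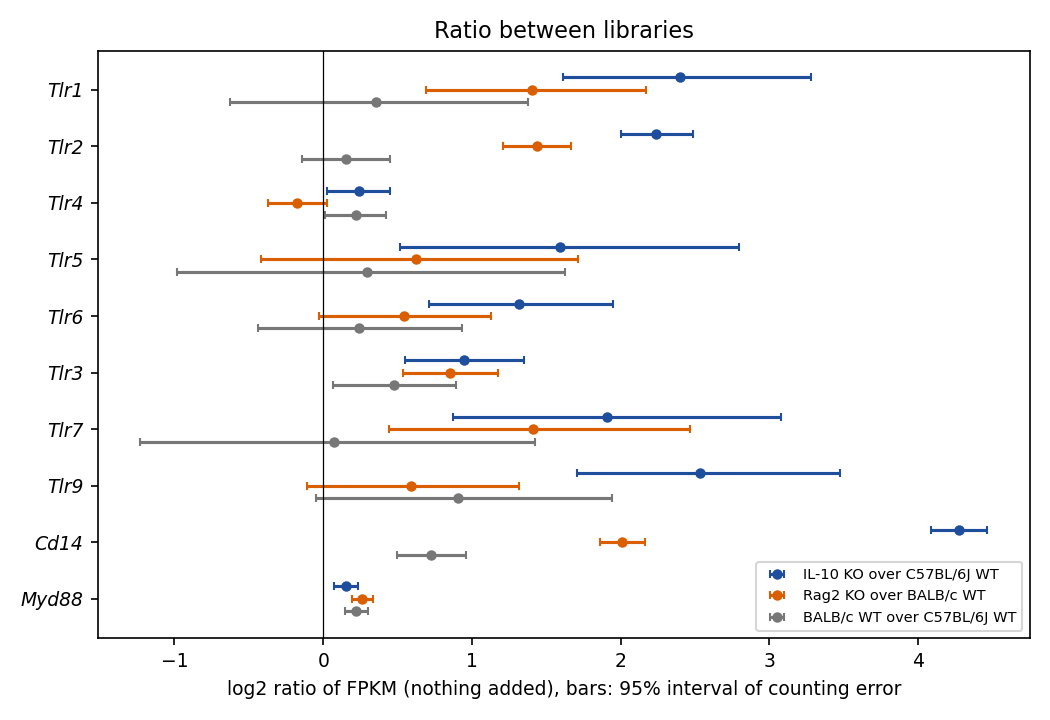
log2 ratio of FPKM with nothing added (points) and its 95% interval of counting error (bars) for each gene in the IL-10 knockout over C57BL/6J wild type, the Rag2 knockout over BALB/c wild type, and the BALB/c over the C57BL/6J wild type. Cd14 and Tlr2 stand far from 0 in both knockout comparisons, Tlr4 and Myd88 lie near 0, and the bars of Tlr5, Tlr7 and Tlr9 are wide.

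The order of the genes within a library was not the same in knockouts and wild types. Myd88 was the most abundant of the 10 genes in both wild types and in the Rag2 knockout, but in the IL-10 knockout Cd14 was 2.24 times Myd88 (2.13 to 2.35), against 0.129 times (0.112 to 0.147) in C57BL/6J wild type. In BALB/c it was 0.614 times Myd88 in the Rag2 knockout and 0.183 times in wild type. Tlr2 was above Tlr4 in both knockouts and below it in both wild types: 2.73 times (2.42 to 3.09) in the IL-10 knockout and 0.683 times (0.566 to 0.822) in C57BL/6J wild type. In BALB/c mice it was 1.99 times Tlr4 (1.75 to 2.27) in the Rag2 knockout and 0.654 times (0.554 to 0.770) in wild type. Tlr3 ranked next below Myd88, Cd14, Tlr2 and Tlr4 in every library, and its interval met that of Tlr1 in the IL-10 knockout. Tlr1, Tlr6 and Tlr9 followed, and in the IL-10 knockout their 95% intervals overlapped (2.64 to 4.16, 2.18 to 3.42 and 2.24 to 3.54 FPKM). Tlr5 and Tlr7 had the lowest values in all 4 libraries, and their intervals overlapped. In the IL-10 knockout these lay below the intervals of all other genes. In the Rag2 knockout they met that of Tlr9, in C57BL/6J wild type those of Tlr1 and Tlr9, and in BALB/c wild type that of Tlr1, with Tlr5 also meeting Tlr9.

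The summed FPKM of the 8 receptors was 61.0 in the IL-10 knockout and 22.5 in C57BL/6J wild type, and in BALB/c mice 44.4 in the Rag2 knockout and 26.7 in wild type. Tlr2 made up 54.5% of it in the IL-10 knockout and 31.3% in C57BL/6J wild type, and in BALB/c mice 47.7% in the Rag2 knockout and 29.3% in wild type. For Tlr4 the shares were 19.97% in the IL-10 knockout and 45.8% in C57BL/6J wild type, and in BALB/c mice 23.9% in the Rag2 knockout and 44.8% in wild type. Together the pair held 71.6% to 77.1% of the sum in all 4 libraries.

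**Figure D3:**
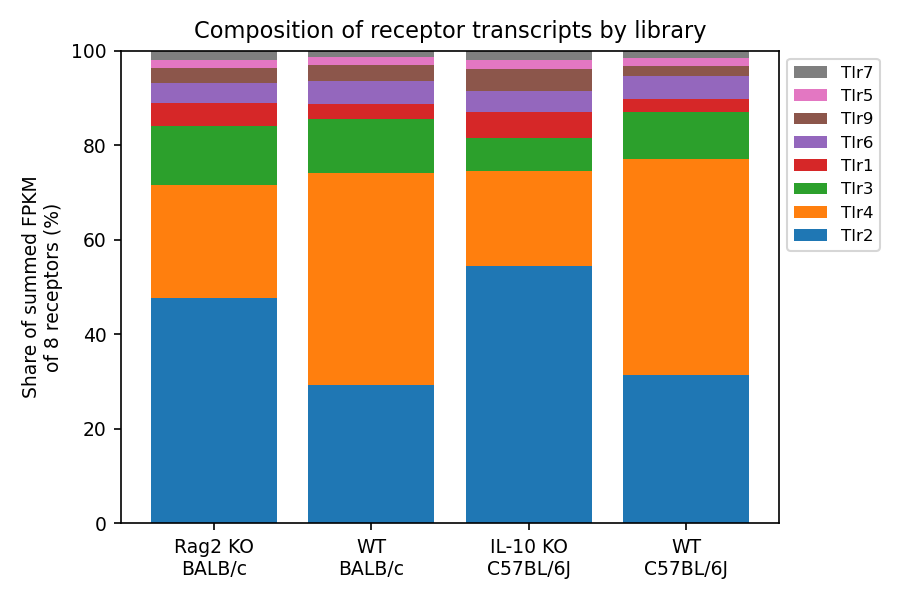
Share of the summed FPKM of the 8 Toll-like receptors held by each of them (stacked, percent) in the Rag2 knockout, BALB/c wild type, IL-10 knockout and C57BL/6J wild type. Tlr2 holds the largest share in both knockouts (47.7% and 54.5%) and Tlr4 in both wild types (44.8% and 45.8%).

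Between the wild types, where BALB/c is set against C57BL/6J, none of the 10 genes was 2-fold apart. Among 12290 compared genes 1.81% were higher by 2-fold or more in BALB/c and 2.17% were lower. This comparison shares a library with each knockout comparison. Cd14 differed most among the genes that passed the filter, with 31.7 FPKM in BALB/c and 19.2 in C57BL/6J (1.66-fold, 1.41 to 1.94). Tlr3 was 1.39-fold higher (1.05 to 1.86), Tlr4 1.16-fold (1.01 to 1.34), Myd88 1.17-fold (1.11 to 1.23), and for Tlr2 (1.11-fold, 0.908 to 1.37) and Tlr6 the interval held 1. Tlr1, Tlr5, Tlr7 and Tlr9 were under 1 FPKM in both wild types. The submitters' processing notes name the mm10 build, a C57BL/6J genome, and the effect of strain variants on the BALB/c values was not tested.

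The span over the 4 libraries was not counted over all genes. On the scale with 1 added it was at least 2-fold for 5 of the 10 (Cd14, Tlr2, Tlr1, Tlr9 and Tlr3). For these, the genes with the most similar profile were sought among 8752 genes that reached 5 FPKM in any library (small RNAs and predicted genes left out), by the Euclidean distance of the log2 values centred on their mean. The nearest to Cd14 was Lbp, which encodes the plasma protein that loads lipopolysaccharide onto CD14, at a distance of 0.20. Lbp had 344.6 FPKM in the IL-10 knockout and 18.6 in C57BL/6J wild type, and in BALB/c mice 127 in the Rag2 knockout and 26.2 in wild type, so its levels as well as its profile lay close to those of Cd14. Next came Gp49a and Cd300lf, receptor genes of myeloid cells, at 0.24 and 0.35. Gp49a has a closely related neighbour gene, so its fragments may be shared.

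The nearest to Tlr2 were Mterfd2 (0.097), Sp110 (0.15) and C4b (0.16), a complement gene with a near-identical copy. Clcf1, Man2a1 and Slc11a2 were nearest to Tlr1 (0.089 to 0.13), Il17ra, Fam13c and Arhgap27 to Tlr9 (0.034 to 0.081), and Nudt1, Ppap2c and Ssh3 to Tlr3 (0.095 to 0.15). With only 4 libraries, small distances are easily found among so many genes, and these names are a description.

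The other Toll-like receptors were weak. Tlr13, a receptor for bacterial ribosomal RNA in the mouse, had 2.75 FPKM in the IL-10 knockout and 0.390 in C57BL/6J wild type, and in BALB/c mice 1.84 in the Rag2 knockout and 0.395 in wild type, log2 ratios of 1.43 and 1.03 with 1 added. Tlr8 had 1.61 FPKM in the IL-10 knockout and 0.271 in C57BL/6J wild type (1.04), and in BALB/c mice 0.909 in the Rag2 knockout and 0.476 in wild type. Both lie on the X chromosome, like Tlr7. Tlr12 had 1.003 FPKM in the IL-10 knockout and 0.193 in C57BL/6J wild type (0.75), and in BALB/c mice 1.25 in the Rag2 knockout and 0.270 in wild type (0.83). Tlr11 was listed at 0 in both wild types and at 0.121 FPKM or less in the knockouts.

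Genes for proteins that handle ligands or escort the receptors differed in both directions. Of 14 compared genes, 5 were higher by 2-fold or more and 1 was lower in the IL-10 knockout (median log2 ratio 0.56). In the Rag2 knockout 2 of 13 were higher and 1 lower (0.60). Over all compared genes 10.1% were higher and 3.82% lower in the IL-10 comparison, and 4.42% and 2.03% in the Rag2 comparison. Lbp had the highest ratios (4.14 and 2.24). Ctss, a protease that cleaves endosomal receptors, had 157 FPKM in the IL-10 knockout and 15.5 in C57BL/6J wild type (3.26), and in BALB/c mice 78.7 in the Rag2 knockout and 27.7 in wild type (1.47). Ly86, whose product binds the receptor-like RP105, had 25.2 FPKM in the IL-10 knockout and 2.898 in C57BL/6J wild type (2.75), and in BALB/c mice 10.1 in the Rag2 knockout and 4.83 in wild type (0.92). Cd36, a scavenger receptor that assists TLR2, was the gene that was lower: 7.01 FPKM in the IL-10 knockout and 28.7 in C57BL/6J wild type (-1.89), and in BALB/c mice 10.02 in the Rag2 knockout and 40.9 in wild type (-1.93). Named after its values were seen, Ly96, which encodes the MD-2 subunit of the TLR4 receptor, was within 2-fold, like Tlr4, with 12.7 FPKM in the IL-10 knockout and 8.11 in C57BL/6J wild type (0.59), and in BALB/c mice 9.92 in the Rag2 knockout and 10.2 in wild type (-0.030).

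Most of the signalling chain below the receptors was within 2-fold, as were most of all compared genes. Of 5 further adaptors, 3 were compared, and their median was 0.28 for the IL-10 knockout and 0.15 for the Rag2 knockout. Ticam1, which encodes TRIF, had 6.72 FPKM in the IL-10 knockout and 7.28 in C57BL/6J wild type, and in BALB/c mice 7.51 in the Rag2 knockout and 6.69 in wild type. Tirap, the bridge between TLR2 or TLR4 and MyD88, had log2 ratios of 0.28 and 0.59. Pik3ap1, an adaptor of B cells and myeloid cells, was the exception, with 26.4 FPKM in the IL-10 knockout and 2.14 in C57BL/6J wild type (3.13), and in BALB/c mice 4.797 in the Rag2 knockout and 4.29 in wild type (0.13).

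Of 21 kinases, ubiquitin ligases and interferon regulatory factors, 3 were higher and 0 lower in the IL-10 knockout (median 0.16). In the Rag2 knockout 1 was higher and 0 lower (0.12). These counts were near the shares of all compared genes that were higher (10.1% and 4.42%). Irf7, which drives type I interferon genes, had log2 ratios of 1.53 and 1.43. Irak2, a kinase recruited by MyD88, had 15.9 FPKM in the IL-10 knockout and 5.47 in C57BL/6J wild type (1.39), and in BALB/c mice 9.68 in the Rag2 knockout and 5.85 in wild type (0.64). Irf5 had log2 ratios of 1.03 and 0.92, and Ikbke, an inducible kinase of the interferon branch, had 0.85 and 0.21. In the Rag2 comparison Irak4, the kinase that binds MyD88 first, had 0.40.

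Negative regulators were higher in part: 5 of 13 in the IL-10 knockout (median 0.21), beside 10.1% of all compared genes. In the Rag2 knockout 1 of 13 was higher (0.29), beside 4.42% of all compared genes. The count of lower genes was 0 in both. Irak3, a kinase-like inhibitor of the MyD88 complex, had 46.5 FPKM in the IL-10 knockout and 14.1 in C57BL/6J wild type (1.65), and in BALB/c mice 20.4 in the Rag2 knockout and 11.7 in wild type (0.76). Tnfaip3, the ubiquitin-editing enzyme A20, had 291 FPKM in the IL-10 knockout and 130.1 in C57BL/6J wild type (1.16), and in BALB/c mice 245 in the Rag2 knockout and 97.3 in wild type (1.32). Its partner Tnip1 had log2 ratios of 1.65 and 0.99, and Socs1, an inhibitor of cytokine receptors, 1.34 and 0.83. Among 6 other receptors that signal through MyD88, Il18rap and Il18r1, the chains of the IL-18 receptor, were higher in the IL-10 knockout, with 6.07 FPKM against 0.201 for Il18rap and 7.21 against 0.831 for Il18r1 in C57BL/6J wild type (2.56 and 2.16). No gene of that list was 2-fold apart in the Rag2 comparison, where Il18rap had 0.56. Il1r1, the receptor of IL-1, had log2 ratios of 0.58 and 0.40. The IL-33 receptor gene Il1rl1 had -0.16 in the IL-10 comparison, and Il1rl2 had -0.32 and Il1rap -0.295 in the Rag2 comparison.

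Genes that this signalling is known to induce were higher as a group. Of 15 compared, 11 were at least 2-fold higher and 0 lower in the IL-10 knockout (median 1.81), beside 10.1% higher among all compared genes. In the Rag2 knockout 12 were higher and 0 lower (1.28), beside 4.42% higher among all compared genes. Among those counted as higher, Il12b, Nos2 and Il23a passed the filter through the knockouts alone. Il1b had 511 FPKM in the IL-10 knockout and 32.3 in C57BL/6J wild type (3.94), and in BALB/c mice 236 in the Rag2 knockout and 30.5 in wild type (2.91). The chemokine gene Cxcl2 had 409 FPKM in the IL-10 knockout and 113 in C57BL/6J wild type (1.85), and in BALB/c mice 329.6 in the Rag2 knockout and 61.3 in wild type (2.41). Csf3 (4.40), Ccl5 (3.81) and Nos2 (3.01) had the other high ratios in the IL-10 comparison, and Tnf (2.41) and Cxcl10 (2.24) in the Rag2 comparison. Named after its values were seen, Ptgs2 went the other way in the IL-10 comparison. It had 239 FPKM in the IL-10 knockout and 415.6 in C57BL/6J wild type (-0.80), and a log2 ratio of 0.068 in the Rag2 comparison. Other receptors induce the genes of this list too.

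A further list held genes whose proteins have been reported to act on Toll-like receptors from within the body. Of 10 compared, 3 were higher and 1 lower in the IL-10 knockout (median 0.093), beside 10.1% and 3.82% of all compared genes. In the Rag2 knockout 4 were higher and 1 lower (0.42), beside 4.42% and 2.03%. The calprotectin genes S100a8 and S100a9 and the serum amyloid gene Saa3 had log2 ratios of 9.97, 8.75 and 6.73 in the IL-10 comparison. In the Rag2 comparison they had 3.98, 4.03 and 6.27. Neutrophils are rich in S100a8 and S100a9, and their part in these ratios was not tested. The matrix proteoglycan gene Vcan had 102 FPKM in the Rag2 knockout and 38.7 in BALB/c wild type (1.38), and 55.3 FPKM in the IL-10 knockout against 55.2 in its wild type. Tnc, a matrix protein gene, was lower in both, with 55.4 FPKM in the IL-10 knockout and 150.3 in C57BL/6J wild type (-1.43), and in BALB/c mice 27.9 in the Rag2 knockout and 73.7 in wild type (-1.37).

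**Figure D4:**
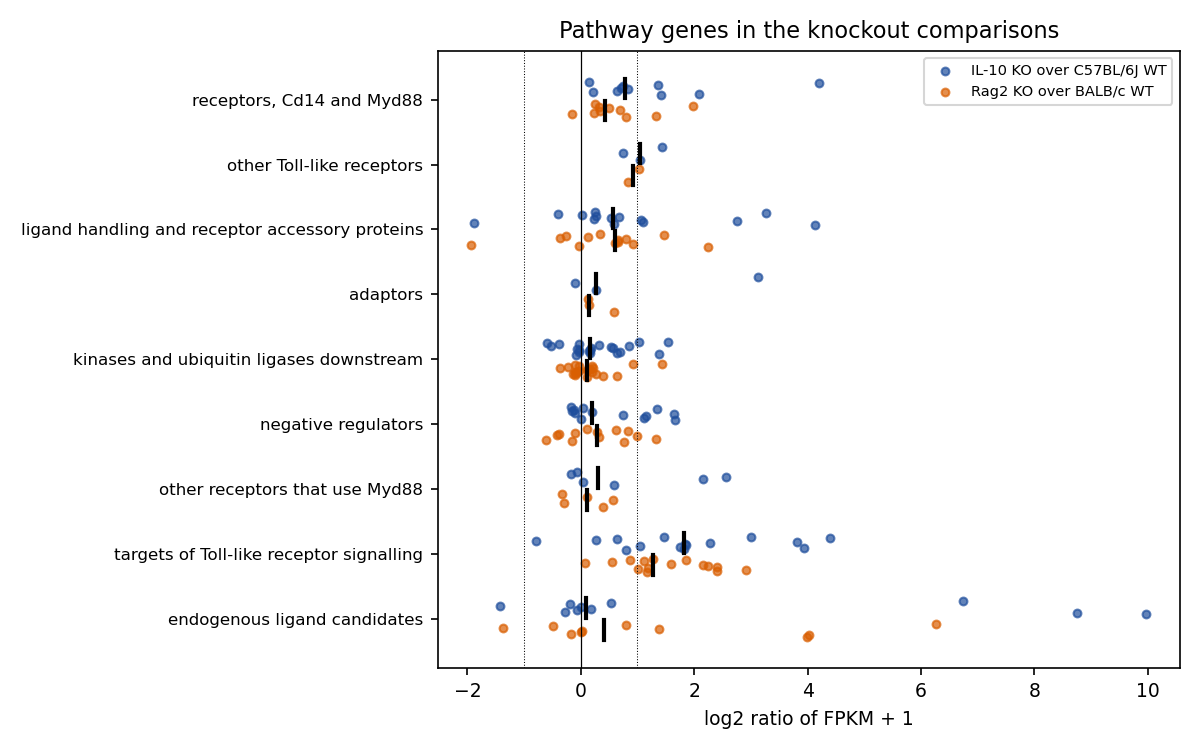
log2 ratio of FPKM plus 1 for the 10 genes and for each gene of 8 pathway lists that reached 1 FPKM in either library (points), with the median of each list (black bars), for the IL-10 knockout over C57BL/6J wild type and the Rag2 knockout over BALB/c wild type. Dotted lines mark 2-fold. Targets have the highest medians (1.81 and 1.28), and downstream kinases lie close to 0 (0.16 and 0.12).

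Other cell types were also measured by their markers. T cell markers summed to 76.4 FPKM in the IL-10 knockout and 5.75 in C57BL/6J wild type, and in BALB/c mice to 3.36 in the Rag2 knockout and 12.4 in wild type. Dendritic cell markers summed to 22.6 in the IL-10 knockout and 4.98 in C57BL/6J wild type, and in BALB/c mice to 11.4 in the Rag2 knockout and 6.66 in wild type. Epithelial markers summed to 161 in the IL-10 knockout and 48.9 in C57BL/6J wild type, and in BALB/c mice to 79.1 in the Rag2 knockout and 16.5 in wild type. Of these markers 6 of 6 were higher in each knockout, beside 10.1% (IL-10) and 4.42% (Rag2) of all compared genes. Blood endothelial markers had median log2 ratios of 0.32 and 0.064, and lymphatic endothelial markers -0.55 and -0.63, in the IL-10 and Rag2 comparisons.

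**Figure D5:**
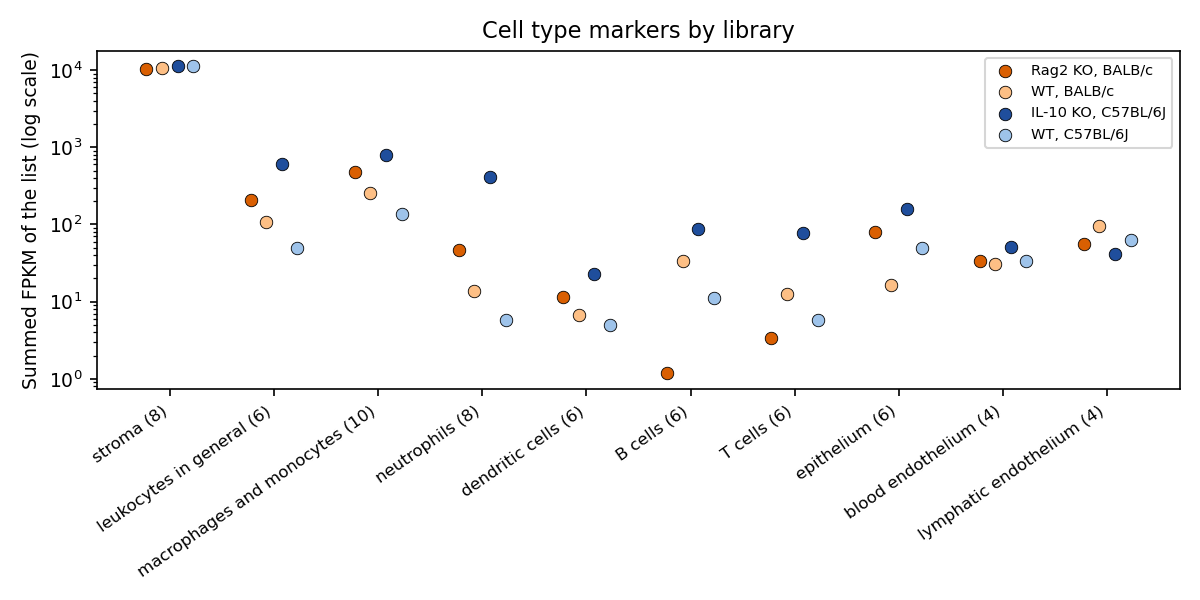
Summed FPKM (log axis) of 10 lists of cell type markers, with the number of genes found in brackets, in the Rag2 knockout, BALB/c wild type, IL-10 knockout and C57BL/6J wild type libraries (points). Stromal markers lie between 10358 and 11289 in all 4, while general leukocyte markers reach 615 in the IL-10 knockout, against 48.9 in C57BL/6J wild type.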

How the data were processed

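Values were FPKM per gene symbol, computed and deposited by the authors, with 1 file per library. Cuffdiff 2.2.1, TopHat2 2.1.1, SAMtools 0.1.18, Bowtie2 2.2.8 and the mm10 build are listed, without roles, in the submitters' processing notes. No source used here gives the annotation, the strand setting or the library normalization. Per the labels' protocols, total RNA came from a miRNeasy kit and went into TruSeq stranded mRNA libraries.

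Differences were computed as log2 of FPKM with a pseudocount of 1, for genes that reached 1 FPKM in either library of a comparison. Depth was estimated from 2339 genes with a single GENCODE transcript of at least 1000 nt. With a length offset of 210 nt, 72.1% of 1277 low values lay within 5% of a whole number of fragments, up to 5. The offset and depths were chosen to bring these same values closest to whole numbers, so this share is no independent check. Fragments of a gene used its longest RefSeq-linked transcript, so the counts of genes with several isoforms are approximate. Gapdh had 0.349 FPKM or less in all libraries, so a gene near 0 need not be silent. Steps were tested on data simulated from the same counting model, which cannot show how well that model fits the deposited values. The analysis used Python 3.11.15, pandas 2.3.3 and scipy 1.17.1.

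The 10 genes, the 8 pathway lists (90 genes, all found) and the 10 marker lists (64 of 65 found) were chosen with earlier results of these data known. All 10 genes are named; of each pathway list, up to 4 genes with the largest absolute log2 ratio in each knockout comparison are named, in some cases with a ratio alone.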

Additional observations from a re-analysis of the deposited data

Results flagged for a closer look

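Results that went in opposite directions in the knockout comparisons are listed here. They come from different knockouts in different strains, with 1 library per group, and the differences were not tested. The log2 ratio of Tlr4 was 0.22 for the IL-10 knockout and -0.16 for the Rag2 knockout. Sigirr, an inhibitory receptor of this family, had 1.11 (2.27 FPKM in the IL-10 knockout and 0.513 in C57BL/6J wild type), against -0.61 (0.579 FPKM in the Rag2 knockout and 1.41 in BALB/c wild type). The median of the B cell markers was 2.33 and -2.46, and that of the T cell markers 2.65 and -0.92.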

How the results depend on the processing

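No paired analysis was possible because each group has 1 library. The direction of each of the 10 genes was the same under the pseudocounts of 0.1 and 5 and both rescalings, in all 3 comparisons. The number of the 10 genes counted as higher did change. Each count is given with the share of all compared genes that were higher. In the IL-10 comparison it was 4, but 7 with a pseudocount of 0.1 (13.0%), 2 with a pseudocount of 5 (4.78%) and 2 with an FPKM of at least 5 (9.30%). It was 5 after rescaling without small RNAs (10.8%), 8 at 1.5-fold (16.5%) and 2 at 4-fold (3.74%). In the Rag2 comparison it was 2, but 3 with a pseudocount of 0.1 (6.32%), 4 at 1.5-fold (10.3%) and 0 at 4-fold (1.22%). Between the wild types it was 0, but 1 at 1.5-fold (5.90%). By construction, a larger pseudocount shrinks the ratios of weak genes. None of the 10 was counted as lower under any alternative. Rescaling without the 861 small RNA rows put the median of all compared genes at -0.13 in the IL-10 and -0.14 in the Rag2 comparison. On that scale Myd88 had 0.016 in the IL-10 comparison, and Tlr4 had -0.30 in the Rag2 comparison. Log2 ratios of Cd14 ranged from 3.96 to 4.27 in the IL-10 comparison and from 1.85 to 2.01 in the Rag2 comparison, and those of Tlr2 from 1.67 to 2.22 and from 1.03 to 1.42. At 10 to 38 fragments, the depth limits Tlr5 and Tlr7 most. The C57BL/6J wild type values of Tlr1 and Tlr9 rest on about 16 and 14 fragments.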
